A study of Homo sapiens with 6 samples.

Results

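The genes of oxidative phosphorylation were compared between C4-2B, a castration-resistant prostate cancer cell line, and RC4-2B, its cabazitaxel (CBZ)-resistant subclone. Members were the protein-coding genes of the read count table whose symbol starts with MT-, together with those whose symbol starts like that of a subunit of complex I (NDUFA, NDUFB, NDUFC, NDUFS or NDUFV with a number), complex II (SDHA to SDHD), complex III (UQCR), complex IV (COX4 to COX8 followed by A, B or C) or complex V (ATP5F1, ATP5M or ATP5P). This gave 99 genes of 58735 in the table, of which 19951 were protein-coding. 13 members lie on mitochondrial DNA and 86 in the nucleus.

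RNA was sequenced from 3 biological replicates of each line. Both lines share the C4-2B background and were harvested after 72 h of growth. RC4-2B was selected over 4 months by repeated 72 h exposures to CBZ, a taxane that blocks microtubule dynamics, from 0.1 nM up to 20 nM, with recovery between exposures. It is 1 subclone, so a difference between the lines can belong to that subclone as well as to resistance. The labels name fetal bovine serum for the culture, while the methods of the study name both this and charcoal-stripped serum.

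Oxidative phosphorylation takes place in the inner mitochondrial membrane. Complexes I and II take electrons from NADH and succinate, complex III passes them to cytochrome c, complex IV hands them to oxygen, and complex V, the ATP synthase, uses the proton gradient made by complexes I, III and IV to form ATP. Each complex but complex II combines subunits made inside the mitochondrion from mitochondrial DNA with subunits encoded in the nucleus, made in the cytosol and imported, so that both genomes have to supply one structure.

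Counts on genes summed to between 15707134 and 18052517 per library. ABCB1, a multidrug efflux pump that exports taxanes, served as the check of the labels and had 0 or 1 count in the C4-2B libraries and 10742 to 15948 in the RC4-2B libraries. All 10 prostate epithelial markers were detected. KLK3 (PSA) and TMPRSS2 passed the test described below and were lower in RC4-2B, the other 8 did not pass, and over all 10 the median log2 fold change was -0.05 with 4 above 0. 4 of 5 fibroblast markers, all 4 leukocyte markers and 2 of 3 endothelial markers had at most 3 counts in every library, and the exceptions were COL1A1 and VWF. RC4-2B replicate 2 stood apart: the SD across genes of its log2 difference was 0.63 to replicate 1 and 0.55 to replicate 3, against 0.24 between those replicates and 0.17 to 0.22 among the C4-2B libraries. Its difference from RC4-2B replicate 1 followed the GC content of the genes (Spearman's rho = -0.69 across 14987 genes). Smaller trends with GC content were also present between RC4-2B replicates 1 and 3 (rho = 0.38 across 11171 genes). Between C4-2B replicate 1 and C4-2B replicates 2 and 3, rho was 0.30 and 0.27. Results are also given without RC4-2B replicate 2, which leaves these other trends in place.

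Per length, the first 10 members by mean FPKM over all libraries lay on mitochondrial DNA, followed by the nuclear ATP5F1B at rank 11 and by MT-ND5 and MT-ND6, while MT-ATP8 stood at rank 25, below several nuclear members. All 13 mitochondrial genes had a mean FPKM (fragments counted relative to gene length and library size) of 100 or more, whereas 16 of the 86 nuclear members reached 100, 50 lay between 10 and 100, 10 between 1 and 10, and 10 below 1. MT-CO1, which encodes the catalytic core of complex IV, stood first with 3288 ± 224 FPKM in C4-2B and 4266 ± 1814 FPKM in RC4-2B (mean ± SD, n = 3). It was followed by MT-CO3 with 2933 ± 94.4 and 2997 ± 888 FPKM and MT-CO2 with 2846 ± 73.1 and 2836 ± 824 FPKM, the remaining core subunits of complex IV, in C4-2B and RC4-2B. The most abundant nuclear member was ATP5F1B, the catalytic beta subunit of the ATP synthase, with 833 ± 20.6 and 777 ± 55.2 FPKM. NDUFS5 of complex I followed with 370.2 ± 21.6 and 362 ± 57.5 FPKM, and COX8A of complex IV with 303 ± 43.2 and 153 ± 85.2 FPKM. Levels in RC4-2B spread widely among the mitochondrial genes, so the order of MT-CO3 and MT-CO2, or of MT-ND1 and MT-ND2, did not exceed the spread between libraries.

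**Figure D1:**
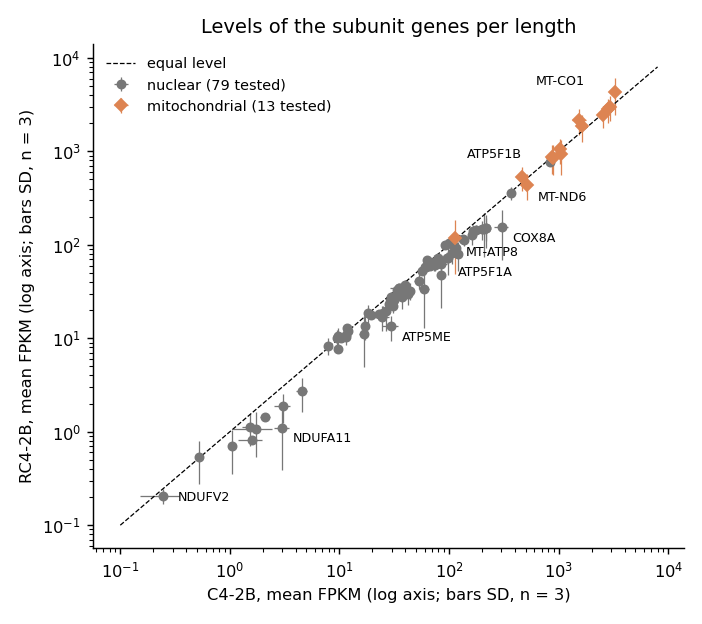
Mean level of each tested member in C4-2B (x axis) and RC4-2B (y axis), in FPKM on log axes, with the SD of 3 libraries as bars and the dashed line at equal levels. The 13 mitochondrial genes (orange) lie around the line at the top right, and many of the 79 nuclear genes (grey) lie under it.

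The question of how both genomes were represented in each line was first addressed with the summed counts. Mitochondrial members took 1.98%, 1.99% and 2.10% of all gene counts in C4-2B against 1.47%, 2.41% and 2.73% in RC4-2B replicates 1 to 3. RC4-2B thus held both the lowest and the highest libraries, and the groups overlapped. Nuclear members took 1.47%, 1.37% and 1.37% in C4-2B against 1.33%, 1.04% and 1.20% in RC4-2B, so that every RC4-2B library lay below every C4-2B library. The log2 ratio of mitochondrial to nuclear counts was 0.42, 0.54 and 0.61 in C4-2B against 0.14, 1.21 and 1.19 in RC4-2B. RC4-2B replicate 1 lay under all C4-2B libraries and the other RC4-2B libraries above them, so the mean difference of 0.32 was smaller than the SD of 0.61 between the RC4-2B libraries. It was 0.67 without RC4-2B replicate 1, 0.14 without replicate 2 and 0.15 without replicate 3.

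**Figure D2:**
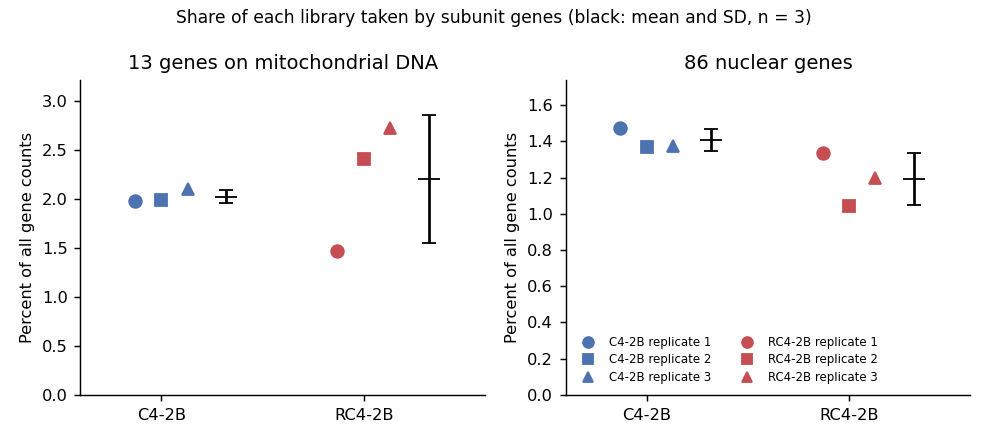
Percent of all gene counts taken by the 13 mitochondrial genes (left) and the 86 nuclear genes (right) in each library (y axes start at 0), with the mean and SD of 3 replicates in black. On the left the RC4-2B libraries lie on both sides of the C4-2B libraries, from 1.47% to 2.73%, and on the right all of them lie below.

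For the tests, all genes with enough counts were fitted together with edgeR's quasi-likelihood test, and p-values were adjusted by Benjamini-Hochberg over all 15054 genes tested. Levels per library are given in CPM, which are counts relative to a TMM-scaled library size. At an adjusted p under 0.05, RC4-2B had 162 genes (1.08%) above and 136 (0.903%) below the C4-2B level. Of the members, all 13 mitochondrial genes and 79 nuclear genes could be tested. None of the mitochondrial genes passed in either direction, with none at an unadjusted p under 0.05 either (21.4% of all genes), and DESeq2 called none. 1 nuclear gene, ATP5F1A, passed and was lower in RC4-2B.

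The 13 mitochondrial genes are transcribed as long precursors from both strands of the circle, 12 from one strand and MT-ND6 from the other. Their fitted log2 fold changes had a median of 0.00, against 0.01 over all genes tested, with 6 below 0 and 7 above, and both groups overlapped in each gene. With a correction for GC content the median was -0.13, with 9 below 0. Without RC4-2B replicate 2 it was 0.05 with 4 below 0, and with both changes -0.02 with 7 below 0. The even median hid a large spread between RC4-2B libraries. Compared with the C4-2B mean, the median log2 difference over the 13 genes was -0.50, 0.00 and 0.41 in RC4-2B replicates 1, 2 and 3, while the C4-2B libraries lay between -0.02 and 0.02. All 13 genes lay under the C4-2B mean in replicate 1 and all 13 above it in replicate 3. RC4-2B replicate 1 was the lowest of the 6 libraries for 10 of the 13 genes, and replicate 3 the highest for 12. Between the highest and lowest RC4-2B library the median ratio was 1.89, against 1.08 among the C4-2B libraries.

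**Figure D3:**
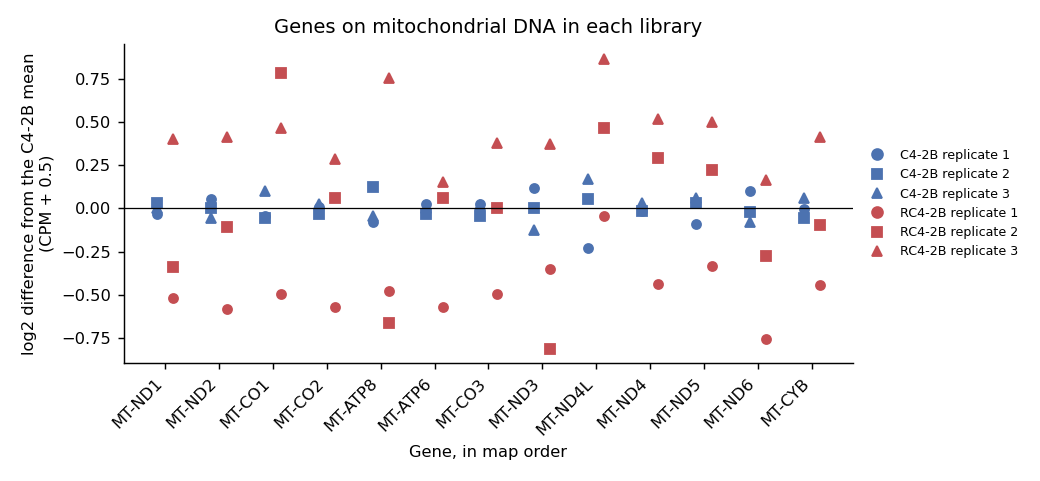
Log2 difference of each mitochondrial gene (x axis, in map order) from its mean over the C4-2B libraries, on the log2(CPM + 0.5) scale, for each of the 6 libraries. C4-2B libraries (blue) stay near 0, and the circles and triangles of RC4-2B replicates 1 and 3 (red) lie below and above 0 in all 13 genes.

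Among the 7 complex I genes on mitochondrial DNA, MT-ND4L, a small membrane subunit, had the highest fitted value. It had 433, 527 and 572 CPM in C4-2B and 492, 699 and 926 CPM in RC4-2B (log2 fold change 0.47, SE 0.22, adjusted p = 0.249). 1 RC4-2B library lay within the range of the C4-2B libraries and the other RC4-2B libraries above it. MT-ND6, the membrane subunit encoded on the opposite strand, had the lowest fitted value, with 319.9, 294 and 282 CPM in C4-2B and 176, 246 and 334 CPM in RC4-2B (log2 fold change -0.24, SE 0.21, adjusted p = 0.479). Replicate 3 was the highest of all 6 libraries and replicate 1 the lowest, so no direction was shared by the RC4-2B libraries. Seen as a share of the mitochondrial members, however, MT-ND6 made up 1.59%, 1.48% and 1.35% in C4-2B against 1.22%, 0.991% and 1.24% in RC4-2B, without overlap. With 3 libraries against 3 the exact permutation test cannot go below p = 0.1, so this share could not pass a threshold of 0.05, and it was looked at after the values were seen.

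The other complex I genes of this genome were closer to 0. MT-ND4, a proton-pumping subunit, had 2470.3, 2465 and 2546 CPM in C4-2B and 1838, 3049 and 3575 CPM in RC4-2B. MT-ND5, another such subunit, had 871, 948 and 966 and 736, 1084 and 1314 CPM. MT-ND1 had 936, 977 and 959.7 and 668, 755 and 1265 CPM, and MT-ND2 1055, 1019 and 979.6 and 680.5, 945 and 1354 CPM. MT-ND3, a subunit at the joint of both arms of the complex, had 441, 406 and 373 and 318, 231 and 525 CPM. The lowest of its RC4-2B libraries was replicate 2, unlike the genes above. Fitted log2 fold changes were 0.18 for MT-ND4, 0.17 for MT-ND5, -0.10 for MT-ND1, -0.04 for MT-ND2 and -0.18 for MT-ND3, with SEs of 0.19 to 0.26.

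Of the complex IV genes on mitochondrial DNA, MT-CO1 showed the widest relative difference among the RC4-2B libraries. Its level was 5483, 5427 and 6060.3 CPM in C4-2B and 4001, 9742 and 7786 CPM in RC4-2B (log2 fold change 0.34, SE 0.27, adjusted p = 0.45). Here replicate 2 was the highest, with MT-CO1 at 39.2% of the counts of the mitochondrial members, against 27.3% to 29.1% in the other libraries. MT-CO1 was the only mitochondrial member that passed the threshold when a library was left out, since its log2 fold change without RC4-2B replicate 1 was 0.64 (adjusted p = 0.0476). MT-CO2, which takes up electrons from cytochrome c, had 2188, 2123 and 2206 CPM in C4-2B and 1462, 2266 and 2644 CPM in RC4-2B. MT-CO3 had 2614, 2484 and 2599.8 and 1819, 2569.9 and 3336 CPM, and the complex III subunit MT-CYB, cytochrome b, had 1309.5, 1263 and 1368 and 966, 1229.9 and 1748 CPM. Fitted log2 fold changes of these genes were -0.03, 0.01 and 0.00, and in each of them replicate 1 was lowest and replicate 3 highest.

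The ATP synthase takes MT-ATP6, part of the proton channel, and MT-ATP8 from mitochondrial DNA. MT-ATP6 had 1954, 1878 and 1922 CPM in C4-2B and 1290.2, 1996 and 2133 CPM in RC4-2B (log2 fold change -0.09, SE 0.17). MT-ATP8 was far lower, with 24.9, 28.6 and 25.4 and 18.8, 16.4 and 44.8 CPM (log2 fold change 0.02, SE 0.34). Both genes are carried by 1 shared transcript and overlap on the map, yet MT-ATP8 had only 0.82 to 2.10 counts per 100 counts of MT-ATP6. The end of MT-ATP8 is the start of MT-ATP6, and the same arrangement, shorter, joins MT-ND4L and MT-ND4. The overlaps are shown because a fragment from these bases belongs to both genes, and how the counting treated such fragments is not given in the sources used here. Capitals mark the bases that both genes share on the hg38 mitochondrial sequence (plus strand):
MT-ATP8 and MT-ATP6, chrM:8512-8587: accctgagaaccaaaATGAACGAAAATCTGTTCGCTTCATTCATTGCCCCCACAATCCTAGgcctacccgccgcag
MT-ND4L and MT-ND4, chrM:10745-10781: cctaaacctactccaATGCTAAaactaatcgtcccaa
The first run of capitals holds 46 bases, or 22.2% of MT-ATP8 and 6.75% of MT-ATP6, and the second holds 7 bases, or 2.36% of MT-ND4L. The capitals open with ATG, the start codon of the downstream gene.

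Several mitochondrial genes also have near-identical copies in the nuclear genome, on chromosome 1, which the table lists as separate pseudogenes. MTATP6P1 (chr1:633696-634376) differed from MT-ATP6 at 10 of 681 aligned bases and matched it over runs of up to 141 bases. MTCO1P12, MTCO2P12, MTCO3P12 and MTND2P28 were 98.7%, 98.2%, 98.2% and 98.4% identical to MT-CO1, MT-CO2, MT-CO3 and MT-ND2 over the bases aligned. The first 60 bases of both copies of ATP6 are shown because few positions separate them, with the only differing base in capitals:
MT-ATP6, chrM:8527-8586: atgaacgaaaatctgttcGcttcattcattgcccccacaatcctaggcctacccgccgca
MTATP6P1, chr1:633696-633755: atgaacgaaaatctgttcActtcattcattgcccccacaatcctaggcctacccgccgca
Counts on MTATP6P1 were 1757, 1944 and 1985 in C4-2B against 1235, 3655 and 2097 in RC4-2B. This was 5.36 to 5.99 per 100 counts of MT-ATP6 in 5 libraries and 10.4 in RC4-2B replicate 2. Counts on MTCO2P12 were 0.03 to 0.07 per 100 counts of MT-CO2 in 5 libraries and 0.36 in that replicate. MTCO3P12 was also highest there, at 0.25 per 100 counts of MT-CO3. MTND2P28 had 0.67, 0.79 and 0.76 per 100 counts of MT-ND2 in C4-2B against 0.91, 1.40 and 0.88 in RC4-2B, without overlap. MTCO1P12 had 0.34, 0.32 and 0.30 per 100 counts of MT-CO1 in C4-2B against 0.26, 0.39 and 0.17 in RC4-2B. None of the 6 pseudogene copies with enough counts passed the test, and which copy the reads came from cannot be told apart.

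The fitted values of the nuclear members lay mostly below 0. Of the 79 tested, 70 (88.6%) had a fitted log2 fold change below 0, against 49.3% of all genes tested, and the median was -0.30, against 0.01. In 41 members (51.9%) all RC4-2B libraries lay below all C4-2B libraries, against 17.1% of all genes, and in 1, UQCRC2, they lay above (17% of all genes). 28 members had an unadjusted p under 0.05, each of them lower in RC4-2B, against 9.42% of all genes. The library medians against the C4-2B mean were 0.10, -0.04 and -0.06 in C4-2B against -0.14, -0.47 and -0.24 in RC4-2B. RC4-2B replicate 2 was the lowest library for 53 members and C4-2B replicate 1 the highest for 61.

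The number of nuclear members called depended on RC4-2B replicate 2. Without it, 16 nuclear members were called lower and none higher, against 6.02% and 6.5% of all genes in that fit. In the same comparison 48 members did not overlap and were lower (22% of all genes), while the median moved from -0.30 to -0.19 and 73 of 79 stayed below 0. Without RC4-2B replicate 1, 2 nuclear members were called lower, and leaving out any of the remaining libraries called 0. DESeq2 called 5 lower (2.64% of all genes with an adjusted p), and edgeR with a correction for GC content called 7 (3.25%), with a median of -0.31. In fits added after seeing the data, the median was -0.26 with a correction for GC content and transcript length. Without RC4-2B replicate 2 it was -0.22 with the GC correction and -0.16 with both corrections. 5 members were called both without RC4-2B replicate 2 and by DESeq2, namely ATP5F1A, ATP5ME, NDUFA11, NDUFA9 and NDUFA4L2. Log2 fold changes of the nuclear members went down with GC content (rho = -0.47 across 79 genes, as across all genes) and up with transcript length (rho = 0.35). The median transcript length was 1584 bases for the tested nuclear members and 3524 for all genes tested. Members below the median GC content had a median of -0.19 with 32 of 39 below 0, and those above it -0.42 with 38 of 40 below 0. Without RC4-2B replicate 2, rho with GC content was -0.44 for the nuclear members and -0.23 across all genes.

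**Figure D4:**
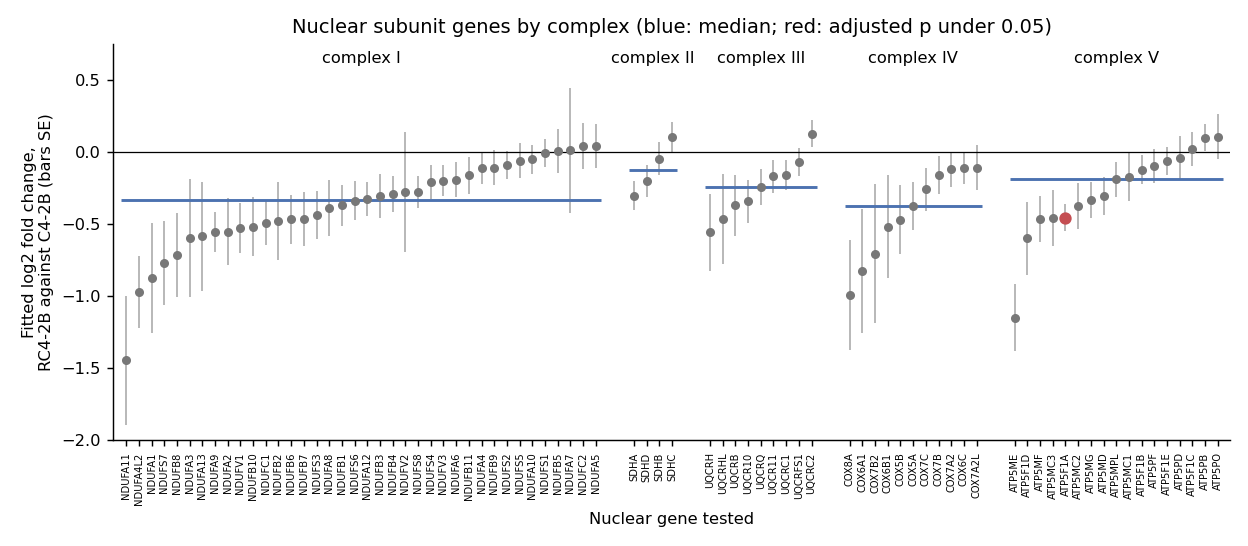
Fitted log2 fold change of RC4-2B against C4-2B with its SE for the 79 nuclear genes tested, sorted within complexes I to V, with the median of each complex as a blue line. Medians lie between -0.38 and -0.12, and ATP5F1A (red) was the member past the threshold.

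The ATP synthase held the member that passed. ATP5F1A, the alpha subunit of the catalytic head, had 1227, 1134 and 1168 CPM in C4-2B and 888, 873 and 810.5 CPM in RC4-2B (log2 fold change -0.46, SE 0.09, adjusted p = 0.0491). The groups lay well apart, with RC4-2B replicate 2 in the middle of its group. The call was close to the threshold: the adjusted p was 0.0012 without RC4-2B replicate 2 and 0.0059 by DESeq2, but 0.0545 to 0.257 when any other library was left out, with log2 fold changes of -0.48 to -0.42. ATP5F1A lies on chromosome 18, where the median of 230 genes was -0.18, and -0.31 with the GC correction. A link between this and the value of ATP5F1A was not tested. Its partner in the head, ATP5F1B, had 2203, 2109 and 2163 CPM and 2181, 1873 and 1892 CPM with overlapping groups (log2 fold change -0.12, SE 0.10). The gamma subunit ATP5F1C, the rotor shaft inside this head, was at 0.02, and ATP5PB and ATP5PO, which belong to the stalk that holds the head still, were at 0.10 and 0.11. No direction held for these 3 genes, since with the GC correction their values were -0.12, -0.08 and -0.03 and all 17 tested members of complex V were below 0.

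ATP5ME, the small subunit e of the membrane part, had the lowest fitted value in complex V. It had 36.6, 28.6 and 27.2 CPM in C4-2B and 18.5, 9.81 and 13.3 CPM in RC4-2B (log2 fold change -1.15, SE 0.24, adjusted p = 0.0511). All RC4-2B libraries were lower, also without replicate 2 (-0.95, adjusted p = 0.00117). The adjusted p was 0.0294 without RC4-2B replicate 1 and 0.151 to 0.26 when any other library was left out. 61.3% of its exonic bases are shared with exons of any other gene, and the largest overlap is with MYL5. Reads there cannot be assigned to ATP5ME without knowing how they were counted. The c-ring, which turns with the proton flow, is built from 1 protein made by 3 genes, and the fitted values of all 3 were below 0. ATP5MC3 had 308, 276 and 266 CPM and 249.1, 144 and 226 CPM (log2 fold change -0.46), ATP5MC2 261, 227 and 216 and 206, 140.1 and 195 CPM (-0.38), and ATP5MC1 245, 197 and 192 and 228, 149.6 and 185 CPM (-0.17). None of the c-ring genes passed the threshold (adjusted p = 0.219, 0.222 and 0.541). Over complex V, 14 of 17 tested members were below 0 with a median of -0.19.

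Complex I had the largest number of nuclear members, 38 of 39 tested, of which 34 were below 0 with a median of -0.33. None passed the threshold, and 17 had an unadjusted p under 0.05. NDUFA11, a membrane-arm subunit, had the lowest value of all members, with 19.1, 14.2 and 15.1 CPM in C4-2B and 9.76, 1.94 and 6.11 CPM in RC4-2B (log2 fold change -1.45, SE 0.45, adjusted p = 0.134). RC4-2B replicate 2 was by far the lowest, and without it the value was -1.03 (adjusted p = 0.00297). When any other library was left out, the adjusted p was 0.0525 to 0.437. NDUFA11 lies on chromosome 19, where the median of 1070 genes was -0.24, and -0.03 with the GC correction. A link between this and the value of NDUFA11 was not tested. NDUFA9, which sits where the arms of the complex meet, had 26.5, 24.9 and 21.5 CPM and 16.9, 15.7 and 16.9 CPM (log2 fold change -0.56, SE 0.14, adjusted p = 0.0808). Its RC4-2B libraries lay close together and below all C4-2B libraries, and without replicate 2 the value was -0.52 (adjusted p = 0.0128). Leaving out any other library gave an adjusted p of 0.0773 to 0.353. At the other end, NDUFA5 of the arm that reaches into the matrix had 113, 99.5 and 103 and 91.4, 133 and 100.2 CPM (log2 fold change 0.04), and NDUFS5, the most abundant complex I member of the nucleus, 239.5, 228 and 211 and 205, 251 and 196 CPM (-0.06), both with overlapping groups. NDUFA5 turned to -0.13 without RC4-2B replicate 2 and to -0.17 with the GC correction.

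NDUFA4 and NDUFA4L2 carry the name of complex I, although NDUFA4 is now counted as a subunit of complex IV and NDUFA4L2 is known as its hypoxia-inducible relative. NDUFA4 had 238, 215 and 216 CPM in C4-2B and 219.7, 184 and 216 CPM in RC4-2B, with overlapping groups (log2 fold change -0.11, SE 0.11). NDUFA4L2 was barely expressed, at 6.03, 5.15 and 3.64 CPM and 2.44, 2.28 and 2.82 CPM (log2 fold change -0.97, SE 0.25, adjusted p = 0.0873). Without RC4-2B replicate 2 its value was -0.90 (adjusted p = 0.0325), but with the GC correction it was -0.49 (adjusted p = 0.3). With any other library left out, the adjusted p was 0.0905 to 0.359.

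All 11 tested nuclear members of complex IV were below 0, with a median of -0.38, and none passed the threshold. This was the lowest median of the 5 complexes with all libraries, but without RC4-2B replicate 2 it was -0.20, as it was for complex I. COX8A, a small membrane subunit, had 198, 151 and 165 CPM in C4-2B and 135, 37 and 85.7 CPM in RC4-2B (log2 fold change -0.996, SE 0.38, adjusted p = 0.194). RC4-2B replicate 2 was again the lowest, and without it the value was -0.63 (adjusted p = 0.0131). COX6A1 had 99.7, 82.3 and 85.8 and 82, 18 and 51.3 CPM, and COX6B1, which helps to join paired complexes, 237, 209 and 208 and 205, 63.8 and 187 CPM. In both genes RC4-2B replicate 2 lay far below the remaining libraries, and without it the log2 fold changes shrank from -0.83 to -0.42 and from -0.52 to -0.15. COX7A2L, a factor that links complexes III and IV, was the highest member of the complex, with 77.3, 68.7 and 70.6 and 60, 82.9 and 57.7 CPM (log2 fold change -0.11). Its RC4-2B replicate 2 was the highest library, so that leaving it out gave -0.29 (adjusted p = 0.0447).

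Isoforms of complex IV that are known from muscle or testis stayed at or near 0 in both lines. COX6A2, the muscle form of COX6A1, had 0 counts in all libraries, and COX8C, the testis form of COX8A, had 1 count in 1 library. A count of 3 corresponded to 0.17 to 0.19 CPM. COX7A1, the muscle form of COX7A2, had 0.418, 0.226 and 0.171 CPM in C4-2B and 0.375, 0.057 and 0.235 CPM in RC4-2B, against 143, 127 and 125 and 124, 132 and 107 CPM for COX7A2. COX6B2 had at most 0.34 CPM. COX7B2 was low but could be tested, with 2.09, 0.906 and 1.71 and 1.19, 0.399 and 1.29 CPM (log2 fold change -0.71, SE 0.48), against 129, 122 and 126 and 128, 93.4 and 117 CPM for COX7B (-0.16).

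Complex II, which also works in the TCA cycle, had 4 nuclear members and none on mitochondrial DNA, and its median of -0.12 was the closest to 0 of the 5 complexes. SDHA, its flavoprotein, had 275, 268 and 247 CPM in C4-2B and 224, 207 and 209 CPM in RC4-2B (log2 fold change -0.30, SE 0.10, adjusted p = 0.147). All 3 RC4-2B libraries lay below the C4-2B libraries, and without replicate 2 the value was -0.28 (adjusted p = 0.0322). SDHC, a membrane anchor, had 188, 186 and 186 and 192, 221 and 187 CPM (log2 fold change 0.10), and SDHB, the iron-sulphur subunit, had the highest level per length, 33.5 ± 2.52 and 33.1 ± 3.46 FPKM (-0.05).

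Complex III had 8 of 9 members below 0 and a median of -0.25. UQCRH, the hinge protein at cytochrome c1, was its most abundant and lowest member, with 366, 336 and 332 CPM in C4-2B and 309, 129.6 and 264 CPM in RC4-2B (log2 fold change -0.56, SE 0.27, adjusted p = 0.262). RC4-2B replicate 2 was the lowest library, and without it the value was -0.27. UQCRHL, a near-identical copy of UQCRH, had 0.91 to 1.38 counts per 100 counts of UQCRH, and such reads may belong to either gene. UQCRC2, a core subunit, was the highest member, with 368, 351 and 369 and 382, 420.5 and 384 CPM (log2 fold change 0.13, SE 0.09, adjusted p = 0.429). Its RC4-2B libraries lay above all C4-2B libraries, but the difference did not pass the test and turned to -0.07 with the GC correction.

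7 nuclear members could not be tested, and 5 of them had at most 3 counts in every library. The 7 genes were the isoforms COX6A2, COX6B2, COX7A1 and COX8C, the readthrough genes NDUFC2-KCTD14 and ATP5MF-PTCD1, and ATP5MGL. At the low end of those tested were NDUFV2 with 0.418, 0.906 and 0.911 CPM in C4-2B and 0.75, 0.513 and 0.587 CPM in RC4-2B, and NDUFA7 with 0.895, 0.849 and 0.74 and 0.875, 0.399 and 1.23 CPM. NDUFV1, which forms the NADH-binding tip of complex I together with NDUFV2, had 257, 242 and 222 and 212, 129 and 158 CPM. Exons of NDUFV2 and NDUFA7 share 28.4% and 32.5% of their bases with other genes, and 30 of the 79 tested members share at least 10%. The part of such shared bases in these levels was not tested.

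The promoters of the nuclear members were searched for letters known from genes of respiration. RefSeq windows of 250 bases before and 50 after the start site (GRCh38.p14) were found for 66 of the 86 members, 79 windows in all. The NRF1 letters GCATGCGC were in 19% of these windows, against 3.05% of all 35116 windows, and the ETS letters CCGGAAGT, which the factor GABPA binds, in 13.9% against 4.14%. The YY1 letters AAGATGGCG were in 12.7% against 1.75%, and the GC box CCCCGCCCC in 13.9% against 15.7%. Both strands were searched, and different motifs do not overlap in the sequences shown, while the NRF1 letters of SDHD lie on both strands and overlap. These are descriptions of the windows and not of binding. The 250 bases before 1 of the start sites of ATP5F1A are shown because it is the member that passed the test, and those of SDHD because they hold both the NRF1 and the ETS letters. Capitals mark the ETS letters and the GC box (ATP5F1A) and the NRF1 and ETS letters (SDHD), on either strand:
ATP5F1A, chr18:46098297-46098546, minus strand: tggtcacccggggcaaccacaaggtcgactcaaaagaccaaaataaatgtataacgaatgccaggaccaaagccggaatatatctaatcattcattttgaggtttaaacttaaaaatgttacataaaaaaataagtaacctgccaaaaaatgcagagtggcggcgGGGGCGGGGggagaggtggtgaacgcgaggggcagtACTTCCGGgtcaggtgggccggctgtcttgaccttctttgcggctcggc
SDHD, chr11:112086623-112086872, plus strand: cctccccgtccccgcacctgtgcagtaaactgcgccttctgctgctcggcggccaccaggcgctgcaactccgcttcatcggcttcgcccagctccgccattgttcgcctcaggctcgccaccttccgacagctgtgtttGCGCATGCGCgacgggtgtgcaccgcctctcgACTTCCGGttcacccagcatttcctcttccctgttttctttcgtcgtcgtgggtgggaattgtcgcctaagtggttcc
The 14 members with the NRF1 letters had log2 fold changes from -1.15 for ATP5ME to 0.04 for NDUFA5. Of the genes for these factors, NRF1 had a log2 fold change of 0.10 (SE 0.14), GABPA 0.15 (SE 0.17) and YY1 -0.24 (SE 0.10), and none passed the threshold.

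Other genes that serve the same complexes were read from lists chosen with earlier results known. Of the tested genes among 209 over 6 lists, none passed the threshold in the fit of all libraries, against 1.98% of all genes in either direction. The list of subunits and carriers that the symbol rule leaves out resembled the nuclear members, with 9 of 10 tested genes below 0 and a median of -0.22. It holds CYC1 (cytochrome c1), at -0.41, CYCS (cytochrome c), at -0.27, COX4I1 at -0.12 and the ATP synthase inhibitor ATP5IF1 at -0.53 (adjusted p = 0.122). Assembly factors had a median of -0.04 with 29 of 52 below 0, the mitochondrial ribosome -0.07 with 46 of 77 below 0, and genes that keep and express mitochondrial DNA 0.09 with 15 of 41 below 0, which turned to -0.02 with 25 of 41 below 0 under the GC correction. Regulators of mitochondrial biogenesis had 4 of 10 below 0. Without RC4-2B replicate 2, 5 of the 204 tested genes over these lists were called higher and 13 lower, against 12.5% of all genes in either direction in that fit. For the mitochondrial ribosome 1 of 77 was called higher and 5 lower.

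Within the machinery of mitochondrial transcription the values went both ways. POLRMT, the RNA polymerase of mitochondria, had a log2 fold change of -0.55 (SE 0.25, adjusted p = 0.237), and TEFM, its elongation factor, of 0.53 (adjusted p = 0.0882). TFAM, which packs mitochondrial DNA and starts its transcription, was at 0.09 (SE 0.14), and TFB2M at -0.01. These genes were chosen here after their values were seen, and none passed the threshold.

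**Figure D5:**
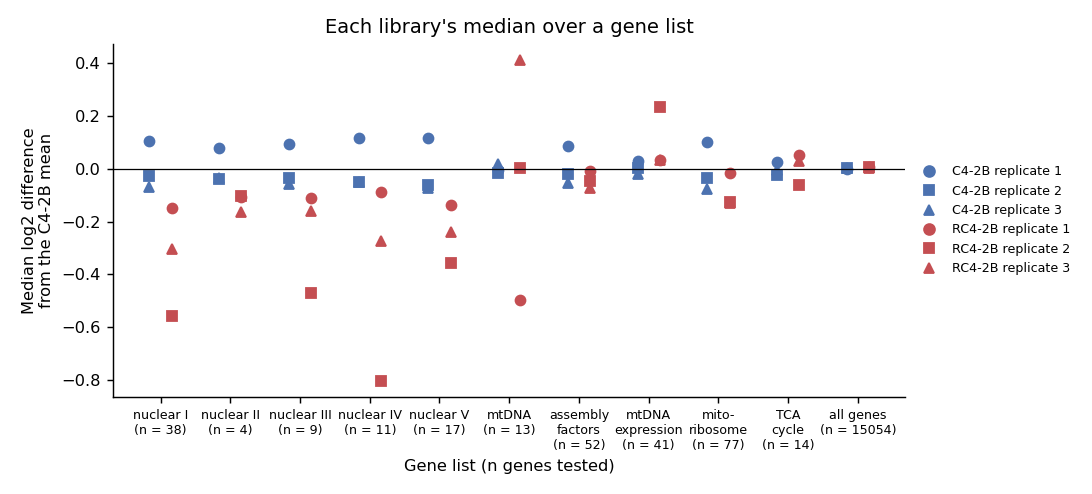
Median log2 difference from the C4-2B mean over each gene list (x axis, with the number of genes tested) in each of the 6 libraries. RC4-2B libraries (red) lie below the C4-2B libraries for nuclear subunits of all 5 complexes, with replicate 2 at -0.80 for complex IV, and lie on both sides of 0 for the genes on mitochondrial DNA (mtDNA), while over all genes the medians are near 0.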

How the data were processed

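Total RNA of 3 C4-2B and 3 RC4-2B cultures was sequenced, and the authors aligned the reads with STAR to GRCh38. They deposited whole-number counts of reads per gene and FPKM values per gene. The counter, its strand setting and the annotation release are not given in the sources used here, nor is the handling of reads shared between genes or copies. Groups came from the labels, and 0 columns of values were left unmapped.

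Counts were tested with edgeR 4.0.16 in R 4.3.3 (TMM scaling, filterByExpr with a minimum count of 10, glmQLFit and glmQLFTest, two-sided), with Benjamini-Hochberg adjustment over all 15054 genes tested and a threshold of 0.05. The script was tested on simulated data, where edgeR recovered 57 of 97 tested genes changed 2-fold and 90 of 97 changed 4-fold. It also called 17 unchanged genes, with 14826 genes tested. Medians over lists are descriptions. Log2 differences of single libraries used CPM + 0.5. DESeq2 1.42.0, limma 3.58.1 on log2(FPKM + 1), other scalings and filters, each library left out, the replicate number as a block, and lowess corrections (span 0.2) for GC content and transcript length were tried as alternatives. GC content and exons came from GENCODE 44, for 99.6% of the genes tested, and nuclear copies were aligned with Biopython 1.88. The replicates are labelled biological, and no pair of libraries agreed within sampling noise.

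Members and lists were chosen with earlier results of these data known. The text names all 13 mitochondrial members, nuclear members past the threshold, in each complex the nuclear member with the highest and lowest log2 fold change and the highest mean FPKM, the pairs of isoforms, members called both without RC4-2B replicate 2 and by DESeq2, and ABCB1. Any other member named was chosen after its values were seen.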

Additional observations from a re-analysis of the deposited data

How the results depend on the processing

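The median log2 fold change of the nuclear members stayed below 0 under every alternative run, from -0.37 to -0.16, and that of the mitochondrial members ran from -0.23 to 0.19 when single libraries were left out. ATP5F1A, the 1 member past the threshold with all libraries, kept its sign under every alternative. Among values not past the threshold, the sign changed under some alternative in 27 of the 92 tested members, 17 of them nuclear. The number of calls was less stable. With all libraries, RC4-2B had 162 higher and 136 lower genes, 1 nuclear member was called lower and no gene of the 6 context lists was called. Without a filter the numbers were 604 higher, 646 lower, 12 nuclear members and 10 context genes. DESeq2 gave 500, 402, 5 and 3. The GC correction gave 657, 490, 7 and 4. limma on FPKM gave 46 higher and 58 lower with a pseudocount of 1, 39 and 47 with 0.1, and 13 and 23 without a filter, with 0 nuclear members each time. RLE size factors called 2 nuclear members, and upper-quartile scaling and robust estimation called 0. Over an absolute log2 fold change of 1 there were 103 higher genes and 0 nuclear members.

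Leaving out single libraries moved the numbers from 13 to 1000 higher genes, from 31 to 925 lower genes, from 0 to 16 nuclear members, from 0 to 1 mitochondrial member and from 0 to 18 context genes. The highest values came without RC4-2B replicate 2, except the mitochondrial call (MT-CO1), which came without RC4-2B replicate 1, where 4 context genes were called. The cause was not tested.

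Replicate numbers are shared by both lines. For genes above a minimum level, the mean of each gene within its line was subtracted from its log2 CPM, and these deviations were correlated between the lines. Deviations of libraries with the same number had correlations of 0.32, 0.18 and -0.07, and those with different numbers of -0.29 to 0.17. Whether the libraries are paired cannot be settled from these few values. With the replicate block, 55 higher and 74 lower genes were called, and the nuclear member called was ATP5ME (adjusted p = 0.0346) in place of ATP5F1A (adjusted p = 0.0805). Chosen after seeing the data, the GC correction with the replicate block gave 642 higher, 564 lower, 13 nuclear members and 11 context genes. Also added after seeing the data, the GC correction without RC4-2B replicate 2 gave 1037, 1013, 22 and 26, the GC and length correction 602, 509, 6 and 6, and both without that replicate 1079, 1130, 20 and 29. The ratio of mitochondrial to nuclear counts is taken within a library, so scalings and filters do not alter it, and FPKM in its place gave a log2 difference of 0.35. Genes at under 3 counts are below what this depth can separate.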

Other observations

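The ribosomal RNAs of mitochondrial DNA differed in which RC4-2B library was lowest. MT-RNR2, the large ribosomal RNA, had 71725, 70873 and 78856 counts in C4-2B against 47929, 82821 and 92288 in RC4-2B (log2 fold change 0.04, SE 0.19), with replicate 1 lowest and replicate 3 highest. MT-RNR1, the small ribosomal RNA, had 14118, 14091 and 15223 counts in C4-2B against 10231, 9111 and 16578 in RC4-2B (log2 fold change -0.23, SE 0.21), with replicate 2 lowest. Of 24 ribosomal and transfer RNA genes, 14 had enough counts to be tested, 10 of them were below 0 and none passed the threshold of edgeR's test. 1 had an unadjusted p under 0.05 (21.4% of all genes), and DESeq2 called 0. Their library medians were -0.31, -0.75 and 0.14 in RC4-2B replicates 1 to 3, and the median log2 fold change moved from -0.35 to -0.06 without replicate 2.

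The 14 genes of the TCA cycle, which feeds electrons to complexes I and II, were split evenly, with 7 below 0 and a median of 0.03. None passed the threshold (3 had an unadjusted p under 0.05, against 21.4% of all genes, and DESeq2 called 0). Among their library medians the RC4-2B libraries lay at 0.05, -0.06 and 0.03, within 0.1 of the C4-2B mean.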
